A study of Mus musculus with 1536 samples.

Results

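The genes of the vascular endothelial growth factor (VEGF) system are described here in lymphatic endothelial cells (LECs) of the mouse nasopharynx. They comprised 10 of the 23168 genes measured, chosen by name for their place in the system. The receptor genes were Flt4 (VEGFR3), Kdr (VEGFR2) and Flt1 (VEGFR1), the co-receptor genes Nrp1 and Nrp2, the ligand genes Vegfa, Vegfb, Vegfc and Pgf, and Ccbe1 encodes a factor needed for ligand processing. All 10 were in the expression matrix.

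Nasopharyngeal mucosa of 30 C57BL/6 mice of both sexes, aged 10-12 weeks, was pooled, and cells carrying both CD31 (an endothelial protein) and PDPN (podoplanin, a protein of LECs) were sorted into wells. No treatment or genetic change is given in the labels. Libraries were made by Smart-seq3, a full-length method for single cells, and the matrix held the cells that passed the authors' filters. Neither mouse nor plate is named for a cell, so the pool counted as 1 sample, and spread is given over cells with no test between groups of cells.

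VEGF ligands signal through receptor tyrosine kinases on endothelial cells. FLT4 binds VEGF-C and VEGF-D and is the main growth receptor of lymphatic endothelium, KDR binds VEGF-A and processed VEGF-C, and FLT1 binds VEGF-A, VEGF-B and placental growth factor with little signal of its own. Neuropilins lack a kinase and hold ligands beside the receptors, with NRP2 known for lymphatic and NRP1 for blood vessel growth, and CCBE1 assists the protease ADAMTS3 in activating VEGF-C.

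Total reads per cell were between 7433 and 3524358, with a median of 350746, and 2001 to 7236 genes were found per cell. A gene was called found in a cell with at least 1 read. Mmrn1, Pecam1, Cdh5, Prox1, Reln, Pdpn, Lyve1 and Ccl21a, which mark LECs, were each found in between 79.2% and 100% of cells. Of these, Pecam1 and Pdpn encode CD31 and PDPN, on which the cells were sorted. Of 5 immune genes, Ptprc and Cd3e were found in 0 cells, and a limit of 3 cells allows a share with a read of up to 0.356% each. Lyz2 was found in 7.96% and Cd79a in 2.85% of cells, and Tyrobp in 3 cells. The summed level of the 5 immune genes reached 260 reads per 10000 in the highest cell. Among 5 fibroblast genes, Dcn was the most frequent (12.4% of cells). Of 4 blood endothelial markers measured, Emcn was found in 94.2%, Plvap in 77.8% and Cd34 in 28.9% of cells, whereas Ly6c1 was found in 5 cells. Cells with at least 3 of these markers are taken up below. In addition, 52 wells held both Xist and a Y chromosome gene, in a pool of both sexes.

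The promoters of the receptor genes are shown first, because 2 of these genes were found in nearly all cells and the other in few. Each is the 250 bases before the RefSeq start site on GRCm38.p6, written 5′ to 3′ along the gene, with capitals for matches on either strand to GGGCGG (a GC box) or CCGGAA (an ETS-type motif, the family of many endothelial transcription factors). GENCODE places the start of Flt4 upstream of that of RefSeq, so the Flt4 window lies inside the gene as positioned below, and the last bases of the Kdr window also lie in its GENCODE gene.
Flt4, chr11:49609429-49609678, plus strand: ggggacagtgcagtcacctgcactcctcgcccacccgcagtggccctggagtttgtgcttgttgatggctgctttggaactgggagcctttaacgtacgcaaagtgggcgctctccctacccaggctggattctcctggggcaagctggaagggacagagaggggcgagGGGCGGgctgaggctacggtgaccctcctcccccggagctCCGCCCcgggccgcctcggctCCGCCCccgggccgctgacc
Kdr, chr5:75978456-75978705, minus strand: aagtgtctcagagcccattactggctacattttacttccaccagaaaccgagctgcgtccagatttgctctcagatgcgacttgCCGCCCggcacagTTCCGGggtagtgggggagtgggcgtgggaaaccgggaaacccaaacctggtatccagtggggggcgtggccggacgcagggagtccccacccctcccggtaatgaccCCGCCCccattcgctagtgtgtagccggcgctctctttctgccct
Flt1, chr5:147726012-147726261, minus strand: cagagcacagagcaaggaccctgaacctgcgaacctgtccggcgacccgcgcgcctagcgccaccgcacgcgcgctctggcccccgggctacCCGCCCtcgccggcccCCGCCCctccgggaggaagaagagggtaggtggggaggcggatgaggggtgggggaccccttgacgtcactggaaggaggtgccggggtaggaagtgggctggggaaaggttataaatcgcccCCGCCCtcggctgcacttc
The Flt4 window held 3 GC boxes, 0 ETS-type motifs and 16 CG pairs. In the Kdr window there were 2 GC boxes, 1 ETS-type motif and 16 CG pairs, and in that of Flt1 3 GC boxes, 0 ETS-type motifs and 23 CG pairs. Among 32851 promoter windows of this length, 32.7% held GGGCGG and 12% held CCGGAA, and the median number of CG pairs was 6. All of the receptor windows therefore held a GC box and more CG pairs than the median, also that of Flt1. These matches describe letters and not sites of binding.

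Flt4 (chromosome 11, 49609263-49652739, GRCm38, plus strand) was the most highly expressed of the 10 genes. Its values, on the scale ln(1 + reads per 10000), were 0 in the lowest, 2.54 in the median and 4.39 in the highest cell. It was found in 840 cells and missed in 2 (99.8% found, exact 95% interval 99.1-100%), with a mean of 2.45 ± 0.626 (SD over cells). Nearly all sorted cells thus held RNA of the VEGF-C receptor, and 97.1% had a value above 1. Intervals of shares cover counting error only, since the cells came from 1 pool.

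Kdr (chromosome 5, 75932827-75978458, minus strand) was also found broadly. The lowest cell was at 0, the median at 1.81 and the highest at 3.38. It was found in 97.6% of cells (96.4-98.5%), with a mean of 1.75 ± 0.706. Its level was lower than that of Flt4 in most cells, as given per length below.

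Flt1 (chromosome 5, 147561604-147726011, minus strand), the decoy-like receptor of VEGF-A, was found in 21 cells (2.49%, 1.55-3.79%). The highest cell reached 1.74, and 5 cells had a value above 1. The cell with most reads held 24.6% of all Flt1 reads. Flt1-positive cells were deeper, with a median of 942562 total reads against 338559 in the others, and 2 of the 21 held at least 3 blood endothelial markers. The part of depth and of these markers in the result was not tested. When cells were thinned to 20000 reads, with 51 shallower cells left out, Flt1 was found in 1.39%.

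The neuropilin genes were also unequal. Nrp2 (chromosome 1, 62703285-62818695, plus strand) had a lowest value of 0, a median of 1.46 and a highest of 3.84, and was found in 93.8% of cells (92-95.4%) with a mean of 1.41 ± 0.823. Nrp1 (chromosome 8, 128358604-128503363, plus strand) was found in 7 cells (0.831%, 0.335-1.71%). Of its reads, 81.2% came from 1 cell. An exon of Nrp1 overlaps the microRNA gene Mir1903 on the same strand, so reads there could not be assigned to one gene only.

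**Figure D1:**
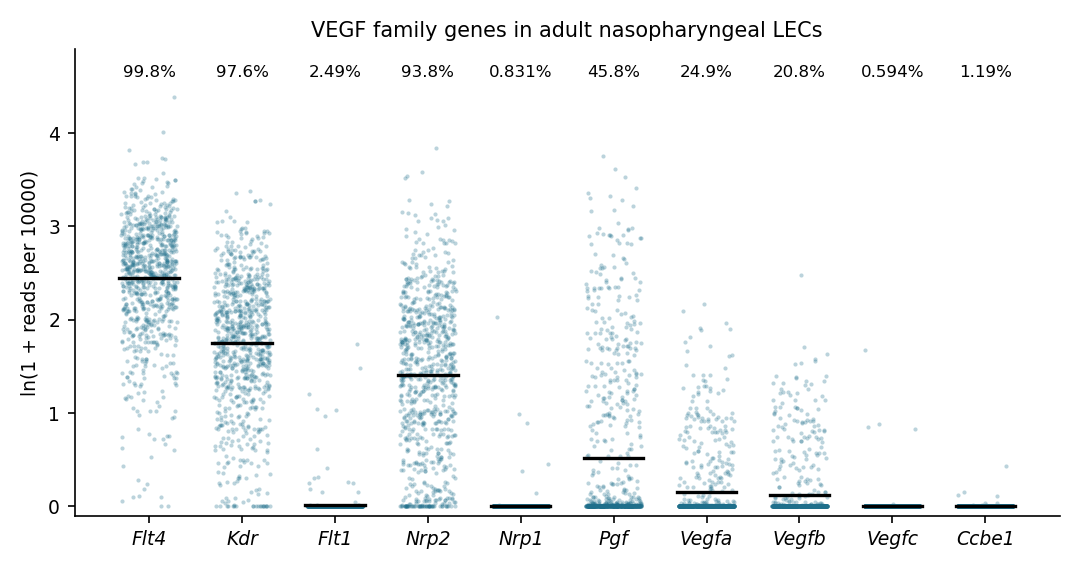
Each point is 1 cell, and the vertical axis gives ln(1 + reads per 10000) for the 10 VEGF system genes on the horizontal axis. Black lines are means, and percentages are shares of cells with at least 1 read: Flt4, Kdr and Nrp2 form clouds well above 0, whereas most points of Flt1, Nrp1, Vegfc and Ccbe1 lie at 0.

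Among ligands, Pgf (chromosome 12, 85166635-85177790, minus strand), which encodes placental growth factor, was the most frequent. It was at 0 in the median cell and at 3.75 in the highest, and was found in 45.8% of cells (42.4-49.3%). Its mean was 0.517 ± 0.877, and 23.3% of cells had a value above 1. Pgf RNA was therefore spread unevenly, with an SD above the mean and many cells without a read.

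Vegfa (chromosome 17, 46016993-46032369, minus strand), the main ligand of KDR, was found in 210 cells (24.9%, 22.1-28%), and its highest cell was at 2.17. Vegfb (chromosome 19, 6982473-6987651, minus strand), a ligand of FLT1, was found in 20.8% of cells (18.1-23.7%), with a highest value of 2.48. For both ligands the median cell was at 0. Means were 0.149 ± 0.364 for Vegfa and 0.126 ± 0.329 for Vegfb, and the intervals of the shares overlapped.

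Vegfc (chromosome 8, 54077606-54187096, plus strand), the principal ligand of FLT4, was found in 5 cells (0.594%, 0.193-1.38%), with 53.1% of its reads in 1 cell. Ccbe1 (chromosome 18, 66045302-66302741, minus strand) was found in 10 cells (1.19%, 0.571-2.17%) with 24 reads in all and no more than 4 in any cell. Exons of Ccbe1 overlap those of Gm15958 on the opposite strand, and whether reads were counted by strand is not stated. Thus the receptor of VEGF-C was found in nearly all LECs, and the ligand and its processing factor in few.

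Shares found differed with depth for several genes. When cells were divided by depth into 4 equal parts, Vegfa was found in 18% of the shallowest and 32.2% of the deepest cells, and for Pgf the shares were 41.2% and 53.6%. From the shallowest to the deepest part the shares were 0.948%, 1.43%, 0% and 0.948% for Nrp1, and 0.948%, 0%, 0.476% and 0.948% for Vegfc. With 7 and 5 cells in all, a relation to depth could not be seen for these 2 genes. After thinning to 20000 reads Flt4 was found in 99%, Kdr in 96.5%, Nrp2 in 86.1%, Pgf in 31.6%, Vegfa in 15.7% and Vegfb in 14.3% of cells. The order of these 6 genes by share was the same at both depths.

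Levels between genes were compared as mean reads per kb of exon per 10000 reads. Flt4 stood highest at 1.54, followed by Kdr at 0.681, Pgf at 0.669, Nrp2 at 0.394, Vegfb at 0.140 and Vegfa at 0.0645. Vegfc, Flt1, Nrp1 and Ccbe1 followed at 0.00409, 0.00170, 0.00134 and 0.000119. Vegfb ranked 3151 and Vegfa 5575 among 22233 genes with a known length, and Vegfc, Flt1, Nrp1 and Ccbe1 ranked between 14537 and 20268. The difference between neighbours in this order was smaller than the SD over cells of the higher gene for all 9 pairs. Within single cells the order was clearer for some, since Flt4 lay above Kdr in 83.7% of cells. For others it was not kept, since Pgf lay above Nrp2 in 26.4% of cells and below it in 68.6%. Vegfb lay above Vegfa in 19.1% of cells and below it in 21%. The means of Kdr and Pgf differed by 1.02-fold, while Kdr was above Pgf in 74.5% of cells, and Pgf reads lay in fewer cells.

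The receptors of a cell were then considered together. Flt4 made up a median of 70.7% (quartiles 56.5% and 82.7%) of the summed reads per kb of Flt4, Kdr and Flt1 in a cell, and over 50% in 83.7% of cells. Among cells with a neuropilin read, Nrp2 made up over 50% of the pair in 99.6%. Flt4, Kdr and Nrp2 were all found in 92.3% of cells (90.3-94%), and in 83.2% after thinning. Co-detection of these receptors in the same cell was therefore usual at this depth.

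Most thinned cells held reads of none or of 1 of the ligand genes counted here, which leave out Vegfd, the gene of VEGF-D. Of the thinned cells, 51.2% had no read of Vegfa, Vegfb, Vegfc or Pgf, 36.2% had reads of 1 of them, 12.1% of 2 and 0.506% of 3. Vegfa and Pgf were found together in 54 cells, and Vegfa was found in 21.6% of cells with Pgf and in 12.9% of those without.

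Stab2 encodes a scavenger receptor of sinusoidal and some lymphatic endothelium, and the study used it as a marker of a lymphatic capillary subtype. Cells with a Stab2 value above 1, which is 1.72 reads per 10000, were compared with the rest. This is a range of a marker and not a cell type. It held 31.2% of cells, with a median of 368560 total reads against 350281 in the rest. Exons of Stab2 overlap Gm16268 on the opposite strand. A gene was compared if 30% or more of the cells on either side held a read of it, and called higher or lower when its log2 ratio of mean reads per 10000 plus 1 was at least 0.3 in size.

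Nrp2 and Pgf were higher in Stab2-high cells, and no VEGF system gene was called lower. Of the 10 genes, 5 were found widely enough to be compared, and 2 of these 5 were called. Vegfa was compared only through its share in Stab2-high cells, since it was found in under 30% of the rest. Among all 5809 genes compared, 9.95% were called, 5.42% higher and 4.53% lower. With 1 pooled sample these ratios have no replicate error.

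Nrp2 had a lowest value of 0, a median of 1.87 and a highest of 3.52 in Stab2-high cells, against 0, 1.31 and 3.84 in the rest. The ranges overlapped throughout, and the shift was in the middle of the distribution. Its mean was 6.52 reads per 10000 in Stab2-high cells and 3.83 in the rest, a log2 ratio of 0.64 (1.70-fold without the added 1). On the natural log scale the means were 1.75 ± 0.773 and 1.26 ± 0.798 (SD over cells), so the difference was smaller than the SD over cells. In thinned cells Nrp2 was found in 95.9% (92.7-98%) against 81.7% (78.1-84.8%).

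Pgf gave the largest log2 ratio of the 5 genes compared. Its median was 0.0960 and its highest value 3.62 in Stab2-high cells, against 0 and 3.75 in the rest, and both ranges began at 0. Mean reads per 10000 were 3.22 and 1.36, a log2 ratio of 0.84 (2.37-fold without the added 1). Thinned cells held Pgf in 49.6% (43.2-56%) of the Stab2-high range and in 23.5% (19.99-27.3%) of the rest, and these intervals did not overlap. Values above 1 were seen in 98 cells on each side, which is 37.3% of Stab2-high cells and 16.9% of the rest.

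Vegfa fell just short of the limit. Its means were 0.460 and 0.193 reads per 10000, a log2 ratio of 0.29 with the added 1 and 2.38-fold without it. It was found in 35.4% (29.6-41.5%) of Stab2-high cells and in 20.2% (17-23.7%) of the rest, and in thinned cells in 24.8% (19.5-30.7%) and 11.6% (9.0-14.5%). The highest cells were at 2.17 and 1.91, and the median cell was at 0 on both sides. With an added value of 0.1 in place of 1, the log2 ratio was 0.94, past the limit, as were 30.2% of all genes compared.

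Flt4 and Kdr were not called. Flt4 had means of 14.2 and 11.9 reads per 10000 (log2 ratio 0.23) and Kdr of 6.33 and 6.07 (0.05). Vegfb, found in 20.9% of Stab2-high cells and 20.7% of the rest, was too sparse to be compared by the rule. Vegfc was found in 0 Stab2-high cells (exact 95% limit 1.39% for cells with a read, or 1.14% by the limit of 3 cells), and in 5 of the rest (0.864%). Flt1 was found in 5 and 16 cells, Nrp1 in 1 and 6, and Ccbe1 in 3 and 7. Differences in these genes were not detectable at this depth.

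**Figure D2:**
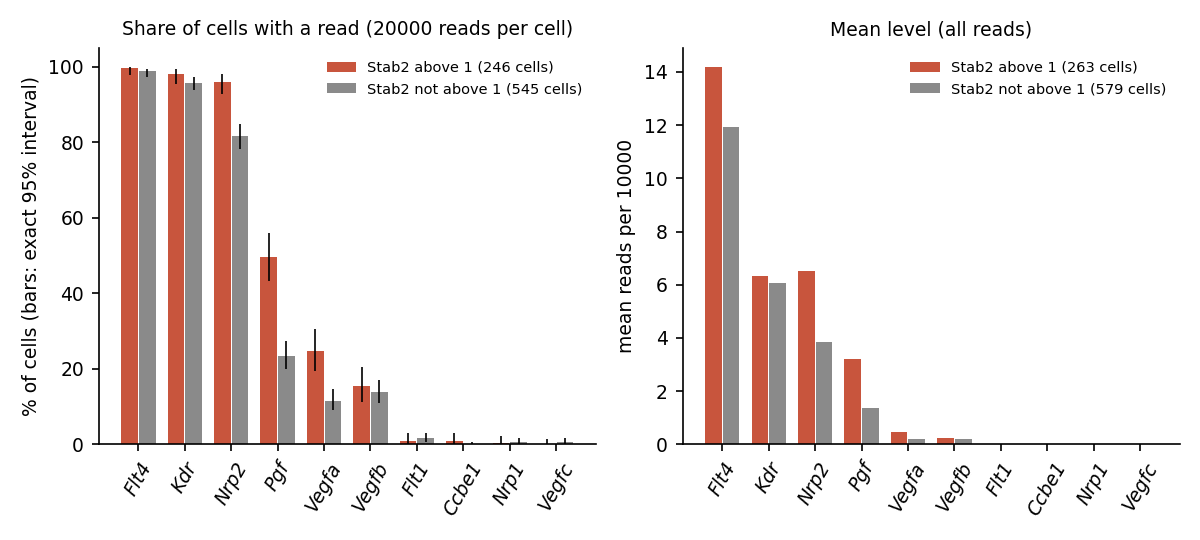
Red bars are cells with Stab2 above 1 and grey bars the rest. The left panel gives the percentage of thinned cells with a read, with exact 95% intervals as error bars, and the right panel mean reads per 10000 with no error bar; the intervals for Nrp2, Pgf and Vegfa do not overlap between the groups.

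Blood endothelial markers were also examined in these ranges. The summed level of the 4 measured was between 0 and 30.1 reads per 10000 (mean 8.62) in Stab2-high cells and between 0 and 43 (mean 7.93) in the rest. At least 3 of them were found in 29.3% and 21.4% of cells, and Plvap in 92.4% and 71.2%. Wells holding at least 3 markers of any other cell type were then left out, from lists of 5 that were not all measured. Nearly all of these wells were left out for blood endothelial markers, of which Emcn was found in 94.2% and Plvap in 77.8% of all cells. Leaving them out therefore could not separate wells of another cell type from LECs. Without these wells the log2 ratio of Nrp2 was 0.61 and that of Pgf 0.81, and both were past the limit.

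Finer ranges of Stab2 showed different shapes. Nrp2 had means of 3.69 reads per 10000 in the cells without Stab2 reads, 4.05 in those up to 1, 5.23 between 1 and 2, 6.76 between 2 and 3 and 10.4 in the 32 cells above 3. It was thus higher in each successive range. Pgf means were 1.19, 1.62, 2.86, 3.86 and 2.31, and its share in thinned cells was 21.2%, 26.8%, 50%, 49.5% and 48.4%, so that the share, but not the mean, was level above a Stab2 value of 1.

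Vegfa followed another course. Its share in thinned cells was 14.2%, 7.73%, 15.5%, 28.6% and 45.2% in the same order, and was highest in the range with least depth, where median total reads were 195616. Flt4 means were between 11.4 and 15 over the ranges. Close to the limit, 36 cells lay within 0.25 above it and 24 within 0.25 below it. Mean reads per 10000 in these were 3.44 and 1.92 for Pgf, 4.85 and 4.53 for Nrp2, and 0.186 and 0.194 for Vegfa. The shares of these cells with a read were 52.8% and 62.5% for Pgf, 94.4% and 95.8% for Nrp2, and 19.4% and 20.8% for Vegfa. For Pgf and Nrp2 the mean and the share thus differed in opposite directions in these few cells.

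**Figure D3:**
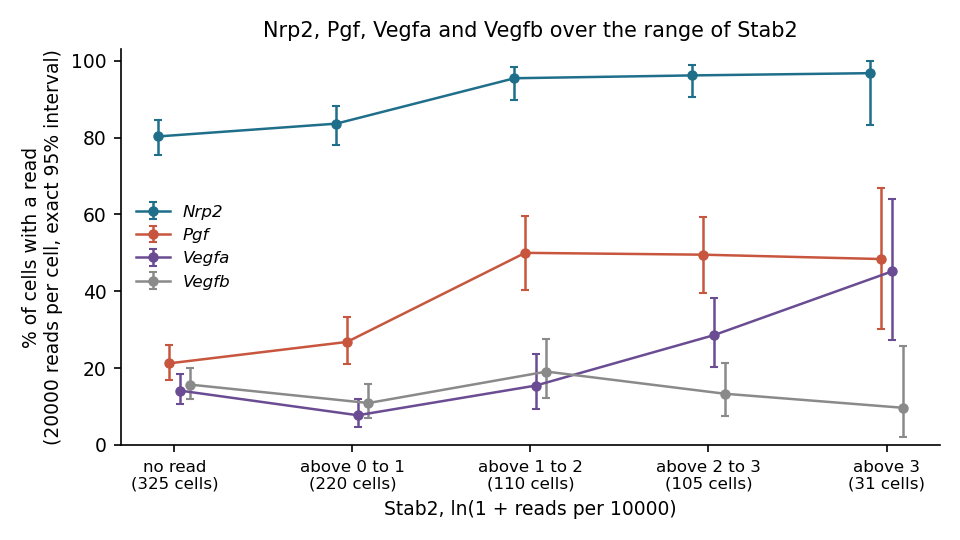
The horizontal axis gives 5 ranges of Stab2 on the natural log scale with the number of thinned cells in each, and the vertical axis the percentage of those cells with a read. Points are shares and bars exact 95% intervals: Pgf is higher in the 3 ranges above a Stab2 value of 1 than in those below, Vegfa is highest above 3 and Vegfb stays between 9.68% and 19.1%.

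Lyve1, which encodes a hyaluronan receptor of lymphatic capillaries, gave another pattern. Flt4 had a mean of 15.1 reads per 10000 in the cells with Lyve1 above 1 and 10.4 in the rest, a log2 ratio of 0.50. Of the 5 VEGF system genes compared it was the single one called, where 4.93% of all genes compared were called. Kdr means were 6.06 and 6.24. Vegfa means were 0.162 and 0.384, a log2 ratio of -0.25 that was not called. Here Vegfa was compared only through its share in the rest (31.3%, against 18.2% with Lyve1 above 1).

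Stab2 and Lyve1 together separated the cells further. Cells with both above 1, Stab2 alone, Lyve1 alone and neither were compared. Flt4 means in this order were 15.1, 12.9, 15.1 and 9.44 reads per 10000, so the lowest level was in cells with neither. Pgf means were 3.08, 3.41, 1.49 and 1.26, and Nrp2 means were 5.79, 7.46, 4.58 and 3.23. Vegfa was found in 47.4% (37.9-56.9%) of cells with Stab2 alone, 26.2% of those with both, 25.5% of those with neither and 13.6% of those with Lyve1 alone. The first of these intervals did not overlap the others. In thinned cells the shares were 34.3%, 17.4%, 14.6% and 7.59% in the same order. Median total reads were lowest, at 252572, in cells with Stab2 alone, and the part of depth was not tested.

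**Figure D4:**
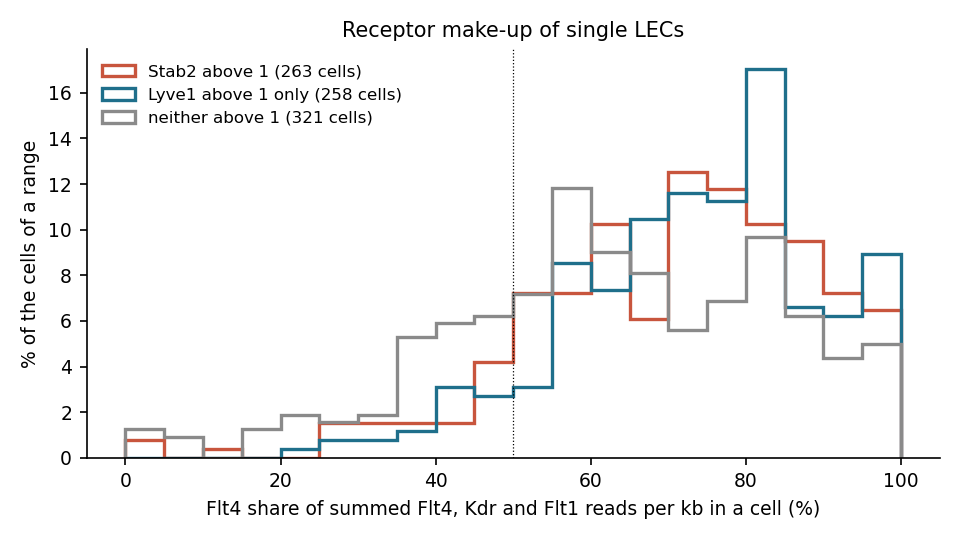
The horizontal axis gives the Flt4 share of summed Flt4, Kdr and Flt1 reads per kb in a cell, and the vertical axis the percentage of cells of a range. Lines show cells with Stab2 above 1 (median share 73.4%), with Lyve1 alone above 1 (74.9%) and with neither (62.9%), and the last group reaches farther to the left of the dotted line at 50%.

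Further marker genes were examined likewise, of which Fndc1, Foxp2, Gja4, Cldn11 and Ptx3 are named by the study for lymphatic subtypes and Igfbp5 is not. Pgf was lower in cells with Igfbp5, an insulin-like growth factor binding protein gene, above 1 (0.872 against 2.59 reads per 10000, log2 ratio -0.94). It was the only one called of 4 VEGF system genes compared (Flt4, Kdr, Nrp2 and Pgf, as in the following comparisons), where 6.16% of all genes compared were called. In the cells with Fndc1 above 1, a capillary marker in the study, Pgf was also the only one of the 4 called (0.895 against 2.15, log2 ratio -0.74), where 5.79% of genes compared were called. Of the cells compared, 21 of those with Igfbp5 and 11 of those with Fndc1 above 1 were also Stab2-high.

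Cells with Foxp2, a transcription factor gene, above 1 were lower in both Pgf (0.818 against 2.18, log2 ratio -0.81) and Nrp2 (3.71 against 4.88, -0.32), 2 of the 4, where 3.19% of genes compared were called. The same pair was called lower in cells with Gja4, a connexin gene, above 1, with log2 ratios of -0.64 for Pgf and -0.31 for Nrp2, where 3.0% of genes compared were called. The Nrp2 ratios lay just past the limit.

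Cldn11, a claudin gene, served the study as a valve marker. Nrp2 had a mean of 3.12 in cells with Cldn11 above 1 and 5.01 in the rest (log2 ratio -0.55), and was the only one of the 4 called, where 3.29% of genes compared were called. Ptx3, which encodes a pentraxin and marks a capillary subtype in the study, was above 1 in 42 cells, of which 31 were Stab2-high. Nrp2 means were 7.78 and 4.51 (log2 ratio 0.67), and it was again the only one of the 4 called, where 16.9% of genes compared were called.

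These splits overlap with Stab2, so Pgf and Nrp2 were also compared among the cells with Stab2 not above 1. Pgf means were 0.828 with and 1.92 without Igfbp5 above 1, 0.848 and 1.5 for Foxp2, 0.843 and 1.61 for Gja4, and 0.864 and 1.5 for Fndc1. Nrp2 means were 2.83 and 4.12 for Cldn11, 3.36 and 3.96 for Foxp2, and 3.3 and 4.08 for Gja4. For Ptx3, above 1 in 11 of these cells, they were 8.3 and 3.74. Log2 ratios are not given for these cells, so whether a difference was past the limit among them is not stated. Each of these differences kept its direction in these cells. The Nrp2 means for Foxp2 and Gja4, whose ratios over all cells lay just past the limit, were closer together here than over all cells. In thinned cells, however, Pgf was found in 22.6% with and 23.8% without Fndc1 above 1, and these shares were nearly equal. The same held for Nrp2 and Foxp2, with 81% and 81.8%. Kdr was not called in any of the 8 comparisons by marker gene, with log2 ratios between -0.24 and 0.26.

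**Figure D5:**
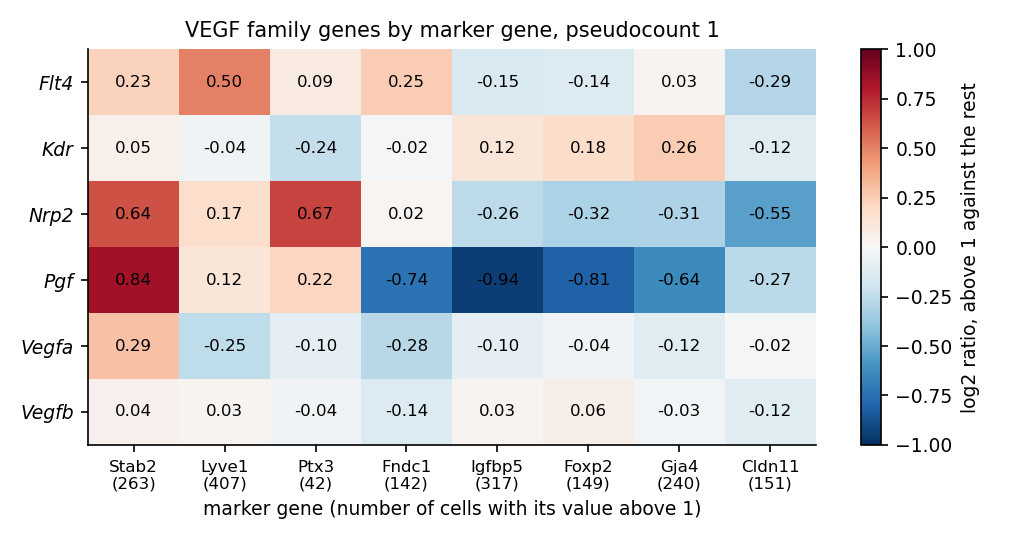
Rows are 6 VEGF system genes, columns are marker genes with the number of cells above 1, and colour and printed values give the log2 ratio of mean reads per 10000 plus 1 against the rest. Pgf runs from 0.84 for Stab2 to -0.94 for Igfbp5, and Kdr stays within -0.24 and 0.26.

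Wider lists of the pathway were read in the Stab2 comparison against the same 9.95% of genes called. Of 12 receptor partners and modifiers, 11 could be compared, and 3 were higher and 1 lower in Stab2-high cells. Clec14a, an endothelial lectin gene, had means of 0.921 and 0.346 reads per 10000 (log2 ratio 0.51), Cdh5, the endothelial cadherin gene, 7.44 and 5.31 (0.42) and Tmem204 4.84 and 3.6 (0.34). Clec14a was compared only through its share in Stab2-high cells, where 40.7% held a read against 26.8% of the rest, so its call rests on the side where it was high. Efnb2, the ephrin gene known for its part in VEGF receptor uptake, was lower at 0.890 against 1.89 (-0.61).

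Among 9 feedback and target genes analysed, 6 could be compared, and 2 were higher and 1 lower. Of the 6, Dusp5 was compared only through its share in Stab2-high cells (34.2%, against 23.8% of the rest) and was not called. Angpt2, a ligand of the TIE receptors, had means of 13.4 and 4.66 reads per 10000 (log2 ratio 1.35), and Spry1, an inhibitor of receptor kinase signalling, 1.16 and 0.554 (0.47). Rcan1, a calcineurin regulator, was lower at 4.09 against 6.05 (-0.47). The list therefore held genes called in both directions.

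Of 8 genes for other ligands and ligand processing, 3 could be compared and Ctsd was higher, with means of 13 and 4.88 (log2 ratio 1.26). Ctsd encodes cathepsin D, a lysosomal protease. Vegfd, the other ligand of FLT4, was found in 94 cells (11.2%), more than Vegfc, with means of 0.0547 in Stab2-high cells and 0.102 in the rest. Its shares with a read were 4.56% in Stab2-high cells and 14.2% in the rest, too low to be compared by the rule. Adamts3 was found in 4 cells.

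None of 16 signal transducers compared, of 22 in the list, was called, with log2 ratios between -0.23 and 0.30, the highest just under the limit. Plxna2, a semaphorin receptor gene, was higher (2.19 against 1.53, log2 ratio 0.34) among 6 of 9 semaphorin and plexin genes analysed that could be compared. For the lymphatic transcription factors, 6 of 7 were compared and 0 called, with ratios between -0.27 and 0.17. Of these 6, Tbx1 was compared only through its share in Stab2-high cells (35%, against 26.9% of the rest).

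Across the thinned cells, 1587 genes were found in at least 50% of cells and were ranked by likeness to each receptor gene. The genes most like Flt4 were Mmrn1 (Spearman's rho 0.42), Reln (0.39) and Lyve1 (0.36), which are all LEC markers. Those most like Nrp2 were the water channel gene Aqp1 (0.32) and Igfbp4 (0.31). No gene reached 0.3 with Kdr, where the highest was 0.22. Between members rho was 0.27 for Flt4 and Nrp2, 0.16 for Flt4 and Kdr and 0.14 for Kdr and Nrp2. The cells share 1 pool and library preparation, and these values are descriptions.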

How the data were processed

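Adult nasopharyngeal LECs were measured by Smart-seq3. Per the labels and the study's methods, STAR alignment to mm10, featureCounts and Seurat 4.1.0 were used, and the authors kept cells with at least 2000 genes and at most 10% mitochondrial reads. On the deposited scale, 1 was added to reads per 10000 before a natural log was taken. The methods name log2, but only the natural log gave sums of 10000 in each cell. The matrix held 842 cells of 1536 wells listed, of which 263 had Stab2 above 1 and 579 did not, and Lyve1 was above 1 in 149 and 258 of these. Whole reads were recovered for 100% of values above 0 (tolerance 0.01 reads). Aged cells were not analysed here.

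Reads per 10000, exact binomial intervals (95%) and log2 ratios with an added 1 were computed in Python 3.11.15 with NumPy 2.4.6, pandas 2.3.3 and SciPy 1.17.1, after the study's limits of 0.3 and 30% but without its test, since cells are not replicates. Doublets were not called. Cells were thinned to 20000 reads to compare shares. This kept 791 cells and left out 17 Stab2-high and 34 other cells. Exon lengths came from GENCODE M21, which matched 96.0% of symbols, and promoters from RefSeq (GRCm38.p6). The genes named were all 10 members, those called in each wider list (at most 4) with Vegfd, and up to 3 most like each receptor at a rho of at least 0.3. Adamts3, Dusp5, Tbx1 and the marker genes of other cell types were named after their values were seen. The members and lists were chosen with earlier results of these data known.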

Additional observations from a re-analysis of the deposited data

How the results depend on the processing

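Nrp2 and Pgf stayed past the limit in the Stab2 comparison under all 7 alternatives that could change the log2 ratio, with ratios between 0.44 and 0.76 for Nrp2 and between 0.67 and 1.19 for Pgf. Vegfa was past it in 3 of the 7, at 0.94 with an added 0.1, 0.48 with Stab2 above 2 and 0.31 in thinned cells, where it was found in too few cells for the rule. The share of genes called among all compared was 9.95%, against 30.2% with an added 0.1, 4.6% with Stab2 split at 1 read and 2.89% with no filter on low values, where many more genes were compared. No value changed direction beyond the limit. The alternative without the wells holding Xist and a Y chromosome gene was chosen after seeing the data. No paired analysis was possible because all cells form 1 pooled sample, and for the same reason no replicate could be left out. Flt1, Nrp1, Vegfc and Ccbe1 were found in under 3% of cells, and this small number limits what can be said of them.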
